A study of Homo sapiens with 12 samples.

Results

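Lysosome genes were followed through 24 h of drug treatment in the myeloma cell line MM.1S, which is an established human line and responds to glucocorticoids. The members were 55 genes chosen by symbol: lysosomal membrane proteins, proteases, enzymes of glycan and lipid breakdown, progranulin, the MiT/TFE transcription factors and subunits of the V-ATPase, the proton pump that acidifies the lysosome. Of these, 30 had a row that the platform annotation names, among 14884 genes tested. None of the 11 V-ATPase genes was among the 30, so the pump is not analysed here and the results concern lysosome genes alone. The other 14 genes without a row, likewise not analysed here, were SCARB2, GAA, GLA, GLB1, GUSB, IDUA, MANBA, MAN2B1, NAGLU, SMPD1, LIPA, NPC1, NPC2 and CLN3.

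Expression was measured on 12 Affymetrix arrays, 3 in each of 4 groups. FPD cells were given 3 drugs, namely 1 nM filanesib, 500 nM pomalidomide and 10 nM dexamethasone. Filanesib blocks the mitotic kinesin that KIF11 encodes. Pomalidomide binds cereblon, after which IKZF1 and IKZF3, a pair of lymphoid transcription factors, are degraded, and dexamethasone is a synthetic glucocorticoid. PD cells received 500 nM pomalidomide and 10 nM dexamethasone. F cells received 1 nM filanesib and, by their treatment label, 10 nM dexamethasone, a drug that neither their title nor the protocol text names for them. Control cells are labelled both as vehicle and as untreated. All groups are of 1 cell line. The labels do not say whether separate cultures were used for the 3 arrays of a group, so the spread behind each p-value is that between arrays and may be technical only.

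Values are log2 expression values, and a difference is the first-named group's mean minus the other's. A gene was called changed at a Benjamini-Hochberg adjusted p under 0.05 in a limma fit to all 12 arrays and all 14884 genes, and "rose" and "fell" are used of such genes only. Array medians lay between 4.23 and 4.27, and no pair of arrays held identical values. Since normalization gave the arrays nearly the same distribution, a change in total RNA would not show. Fewer cells of a type and less RNA per cell cannot be told apart. The glucocorticoid-induced gene DDIT4 averaged 10.61 ± 0.02 in FPD, 10.45 ± 0.01 in PD, 5.97 ± 0.11 in F and 5.99 ± 0.08 in control (mean log2 ± SD, n = 3 each). FKBP5, which encodes a glucocorticoid receptor co-chaperone, averaged 7.25 ± 0.04 in FPD, 7.06 ± 0.12 in PD, 5.74 ± 0.30 in F and 5.57 ± 0.03 in control (n = 3 each). Neither gene passed the test in F against control (limma adjusted p = 0.978 and 0.902), so the response of these genes seen in FPD and PD was not called in F. The FKBP5 values were 6.09, 5.56 and 5.58 in F and 5.54, 5.60 and 5.56 in control, so 1 F array lay above the rest. KIF11 had a log2 difference of 0.27 in F against control (limma adjusted p = 0.702). CRBN, which encodes cereblon, rose by 0.32 in FPD (limma adjusted p = 0.0341) and by 0.33 in PD (0.0255), calls that were lost without some single arrays (adjusted p up to 0.136 in FPD and 0.0865 in PD).

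Lysosomes are acidic organelles in which proteins, glycans and lipids delivered by endocytosis and autophagy are broken down. Many of their genes carry a short palindromic promoter element, an E-box, that is bound by TFEB, TFE3 and MITF. The kinase complex mTORC1 acts at the lysosome surface and holds TFEB in the cytoplasm while nutrients are plentiful. Plasma cells and myeloma cells, which make large amounts of secreted protein, use lysosomal and autophagic breakdown beside the proteasome.

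A group of lysosome genes rose in cells given pomalidomide and dexamethasone, with or without filanesib, while most lysosome genes did not pass the test. CD68 and GRN (progranulin) rose most, by more than 2-fold, followed by the cathepsins CTSO, CTSS and CTSZ and the tetraspanin CD63. Members were chosen with earlier results of these data known. Of the 30, 26 had a mean above the median of all gene means, so shares over all genes are not at matched level. In FPD against control, 9 of the 30 genes rose and none fell, against 7.26% of all tested genes rising and 5.89% falling. In PD against control 8 of 30 rose and 2 fell (CTSC and IDS), against 6.84% rising and 8.63% falling among all tested genes. In F against control none of the 30 rose or fell, where 0.00672% of all genes were called (limma), and 2 of the 30, CTSL and CTSS, reached an unadjusted p under 0.05, against 6.01% of all genes. Unadjusted p-values under 0.05 were found for 14 of the 30 in FPD and 13 in PD, against 24.5% of all genes in FPD and 26.5% in PD.

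Counted without a test, all 3 FPD arrays lay above all 3 control arrays for 16 of the 30 genes, against 14.4% of all genes, and below them for 3 (CTSA, CTSC and IDS), against 15.5%. All PD arrays lay above control for 12 genes, against 13.2% of all genes, and below for 4 (LAMP1, CTSA, CTSC and IDS), against 15.8%. The F arrays lay above control for none of the 30, against 4.84% of all genes, and below for LAMP1 alone, against 5.15%. Among these genes, chosen with earlier results known, separation from control in FPD and PD was more frequent upward than downward. Over all genes it was about as frequent in either direction. These counts describe the list and do not test it. The median log2 difference over the 30 genes was 0.17 in FPD, 0.14 in PD and 0.03 in F, each against control, and the median over all tested genes was -0.02, -0.0027 and -0.01 in those comparisons. FPD and PD are compared with the same 3 control arrays, so their values are given side by side and are not independent.

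**Figure D1:**
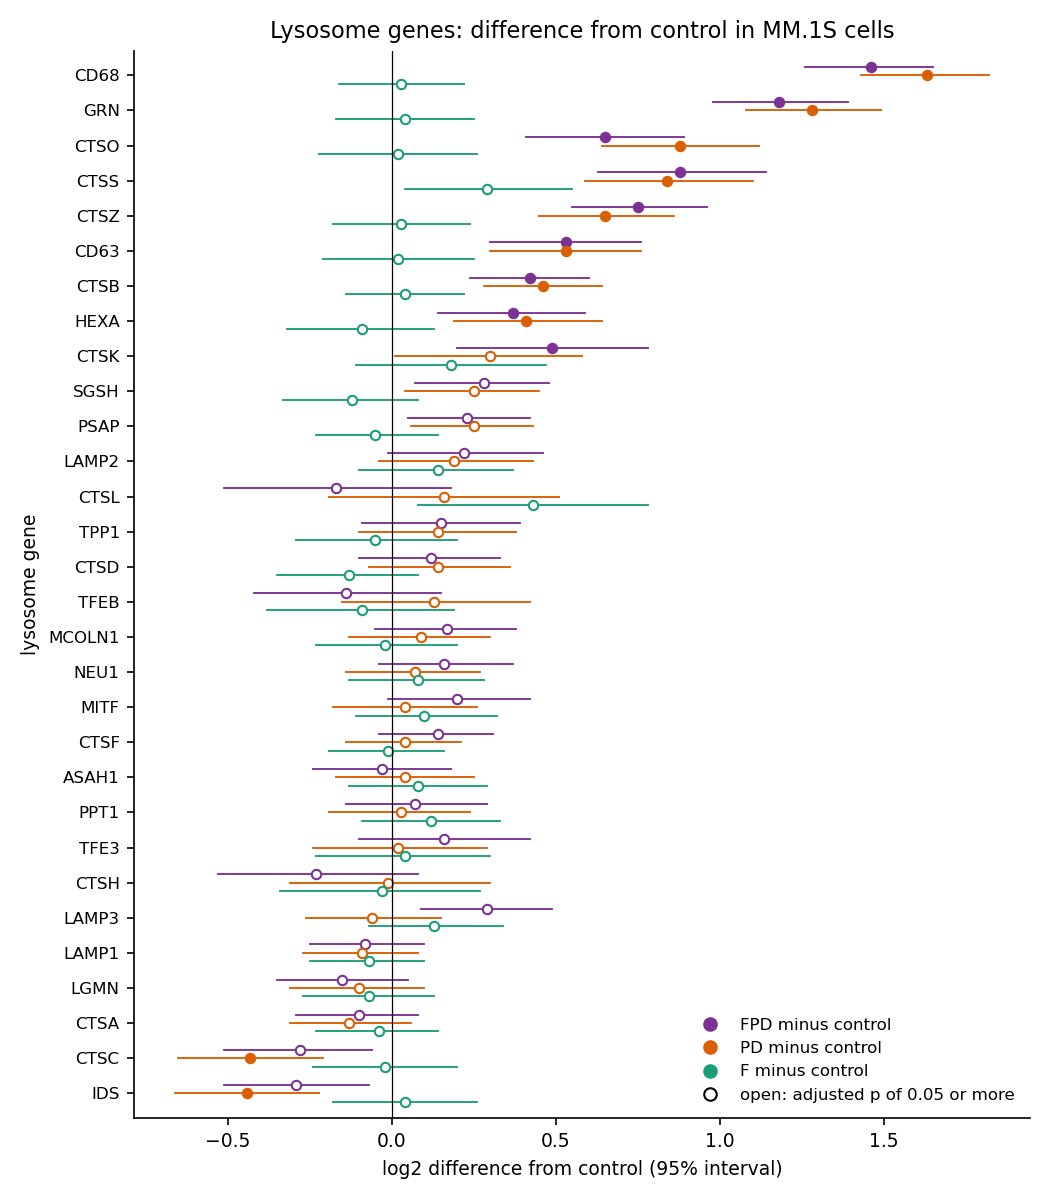
Log2 difference from control of the 30 measured lysosome genes (x axis) with 95% intervals from the limma fit, 1 gene a line, for FPD, PD and F (from top to bottom within a gene). Filled points passed the test. CD68 and GRN lie above 1 in FPD and PD, and no filled point is seen in F.

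CD68 encodes a heavily glycosylated protein of the lysosomal membrane that is widely used as a macrophage marker. Its values were 10.00, 10.18 and 10.05 in FPD, 10.36, 10.11 and 10.26 in PD, 8.68, 8.67 and 8.59 in F, and 8.61, 8.61 and 8.62 in control. Every FPD and PD array lay above every F and control array. The difference from control was 1.46 in FPD (2.75-fold, 95% interval 1.26 to 1.65, limma adjusted p = 5.46e-08) and 1.63 in PD (3.09-fold, 1.43 to 1.82, limma adjusted p = 1.31e-08). Counted from the most raised gene down, CD68 ranked 26 of 14884 genes in FPD and 18 in PD. In F it was 0.03 (95% interval -0.16 to 0.22, limma adjusted p = 0.974).

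GRN encodes progranulin, a secreted glycoprotein that is carried to lysosomes and cut there into granulins. It measured 11.02, 11.09 and 11.08 in FPD, 11.28, 11.09 and 11.12 in PD, 10.01, 9.91 and 9.82 in F, and 9.97, 9.97 and 9.71 in control. The FPD and PD arrays again lay apart from, and above, those of F and control. GRN was higher by 1.18 in FPD (2.27-fold, 95% interval 0.98 to 1.39, limma adjusted p = 9.01e-07) and by 1.28 in PD (2.44-fold, 1.08 to 1.49, limma adjusted p = 4.13e-07). Counted in the same way, it ranked 54 of 14884 genes in FPD and 39 in PD. The difference in F was 0.04 (-0.17 to 0.25, limma adjusted p = 0.970).

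Because CD68 is used as a marker of macrophages, 9 measured myeloid markers were set beside it. None of the 9 passed the test in FPD or PD against control (limma), and 1 in each comparison had an unadjusted p under 0.05. For these and the other marker counts below, 7.26% of all genes rose and 5.89% fell in FPD. In PD 6.84% of all genes rose and 8.63% fell. Unadjusted p-values under 0.05 were found for 24.5% of all genes in FPD and 26.5% in PD. The mean log2 value over the 9 markers lay between 4.05 and 4.14 in the FPD arrays, 4.04 and 4.21 in PD, 4.0 and 4.16 in F, and 4.14 and 4.24 in control. Of the 9 genes, 8 had a mean below 5.39, the median of all gene means. CD14, the monocyte co-receptor for lipopolysaccharide, averaged 3.47 ± 0.02 in FPD, 3.51 ± 0.06 in PD, 3.44 ± 0.05 in F and 3.51 ± 0.07 in control (n = 3 each). In no FPD, PD or F array did the mean over the 9 markers exceed the highest control array. Of 9 measured plasma cell markers 2 fell in both comparisons, IRF4 (log2 difference -1.35 in FPD and -1.23 in PD) and SLAMF7 (-0.54 and -0.48), and their part in the lysosome results was not tested. Among markers of other cells, 1 of 4 measured B cell genes, CR2, fell in FPD (-0.96) and PD (-1.23), with a median over the 4 of -0.07 in FPD and -0.04 in PD. Of 7 measured stromal, endothelial and epithelial genes none was called in FPD and 1, PECAM1, rose in PD (0.41, limma adjusted p = 0.0483, and up to 0.208 without single arrays), where the other endothelial gene, VWF, had -0.13 (0.579). None of 5 T cell markers was called in FPD or PD (limma, 1 with an unadjusted p under 0.05 in PD).

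**Figure D2:**
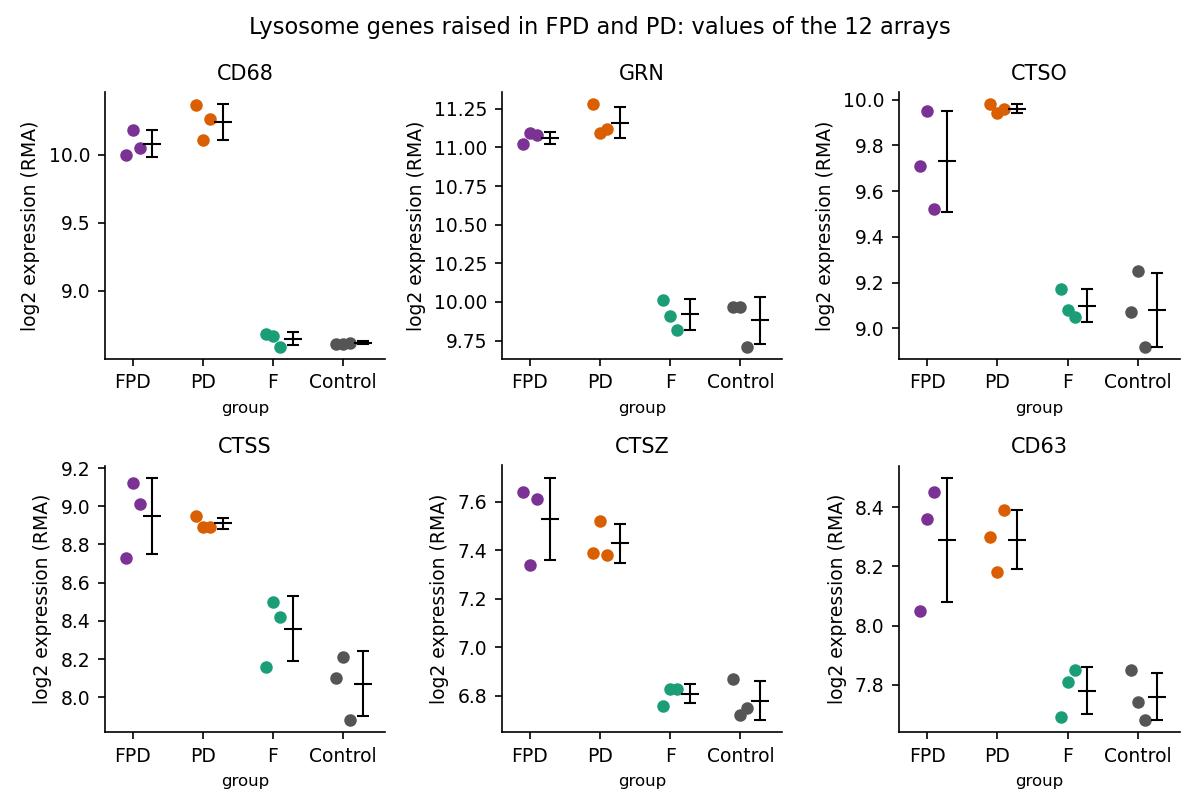
Log2 expression (y axis) of CD68, GRN, CTSO, CTSS, CTSZ and CD63 in the 12 arrays by group (x axis: FPD, PD, F, Control). Points are arrays, and the bars beside them are the mean and SD of 3 arrays. In all 6 genes the FPD and PD points lie above the F and Control points.

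The promoters of 6 members are shown, 3 of genes that rose and 3 of genes that did not pass the test. They set the E-box string TCACGTG beside the measured differences. The 6 were picked and do not stand for all members. Of 13 members without TCACGTG in their windows, 4 rose in FPD and 4 in PD, and the others did not rise. Each promoter shown is the 300 bases from 250 before to 50 after the start, from RefSeq (GRCh38.p14), written 5′ to 3′ along the gene. Capitals mark TCACGTG or its reverse complement CACGTGA, and a run of 8 capitals holds both. Related spellings, such as tcacatg in the GRN window or catgtga in that of CD68, were not searched for and are not marked. The 3 genes that rose had no match in this window: CD68 (chr17:7579388-7579687, plus strand), GRN (chr17:44345052-44345351, plus strand) and CTSZ (chr20:59007205-59007504, minus strand).
CD68: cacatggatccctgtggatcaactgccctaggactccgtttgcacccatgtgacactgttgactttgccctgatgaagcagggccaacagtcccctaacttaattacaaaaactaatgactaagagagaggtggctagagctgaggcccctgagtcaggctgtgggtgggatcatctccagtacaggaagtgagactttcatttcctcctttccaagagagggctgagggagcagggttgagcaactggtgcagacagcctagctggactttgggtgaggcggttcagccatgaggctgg
GRN: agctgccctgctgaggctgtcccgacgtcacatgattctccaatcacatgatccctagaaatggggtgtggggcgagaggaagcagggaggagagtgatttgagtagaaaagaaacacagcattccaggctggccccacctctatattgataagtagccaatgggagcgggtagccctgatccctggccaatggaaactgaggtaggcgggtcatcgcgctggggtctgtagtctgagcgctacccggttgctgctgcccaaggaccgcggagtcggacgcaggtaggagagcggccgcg
CTSZ: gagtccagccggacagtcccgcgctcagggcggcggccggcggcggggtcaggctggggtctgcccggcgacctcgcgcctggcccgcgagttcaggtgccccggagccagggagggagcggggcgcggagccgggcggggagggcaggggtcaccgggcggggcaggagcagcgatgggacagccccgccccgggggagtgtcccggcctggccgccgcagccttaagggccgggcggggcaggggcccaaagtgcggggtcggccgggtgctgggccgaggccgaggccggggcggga

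The 3 promoters shown with TCACGTG are those of LAMP1 (chr13:113296989-113297288, plus strand), MCOLN1 (chr19:7522374-7522673, plus strand) and CTSA (chr20:45891085-45891384, plus strand). They hold 6, 2 and 2 copies of the core CACGTG. LAMP1 encodes the main glycoprotein of the lysosomal membrane, MCOLN1 a lysosomal calcium channel, and CTSA a carboxypeptidase that protects other lysosomal enzymes.
LAMP1: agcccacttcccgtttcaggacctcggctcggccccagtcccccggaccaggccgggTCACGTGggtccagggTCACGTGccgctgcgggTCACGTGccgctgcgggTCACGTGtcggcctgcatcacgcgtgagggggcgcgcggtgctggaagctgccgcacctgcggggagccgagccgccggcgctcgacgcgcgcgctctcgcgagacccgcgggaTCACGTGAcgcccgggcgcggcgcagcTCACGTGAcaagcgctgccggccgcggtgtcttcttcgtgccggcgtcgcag
MCOLN1: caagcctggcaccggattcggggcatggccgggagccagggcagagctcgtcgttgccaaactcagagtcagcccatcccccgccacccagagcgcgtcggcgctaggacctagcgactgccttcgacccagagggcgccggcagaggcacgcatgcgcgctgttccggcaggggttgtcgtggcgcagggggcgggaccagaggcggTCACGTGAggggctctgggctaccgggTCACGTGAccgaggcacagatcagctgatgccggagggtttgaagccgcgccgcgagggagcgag
CTSA: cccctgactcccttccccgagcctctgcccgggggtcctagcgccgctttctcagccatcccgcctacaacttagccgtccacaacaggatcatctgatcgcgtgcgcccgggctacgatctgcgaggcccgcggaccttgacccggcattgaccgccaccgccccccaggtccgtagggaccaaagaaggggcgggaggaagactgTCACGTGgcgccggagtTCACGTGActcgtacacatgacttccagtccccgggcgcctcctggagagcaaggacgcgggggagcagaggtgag

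In all, 19 of the 30 measured members had a promoter window. LAMP2, LAMP3, CTSB, CTSK, CTSO, CTSS, LGMN, HEXA, PSAP, SGSH and ASAH1 had no entry. TCACGTG, searched on both strands, was found in the windows of 6 of the 19 (CTSA, CTSD, CTSF, LAMP1, MCOLN1 and NEU1), against 3.67% of all 34796 windows, of which a gene can have several. None of these 6 genes passed the test in FPD or PD. Over all genes 7.26% rose and 5.89% fell in FPD, and 6.84% and 8.63% in PD. At those shares 6 genes are too few to read anything from the absence of calls. The log2 differences of the 6 from control ran from -0.10 to 0.17 in FPD and from -0.13 to 0.14 in PD. The 13 members without the motif ran from -0.29 to 1.46 in FPD and from -0.44 to 1.63 in PD, and 4 of them rose in each (CD68, GRN, CTSZ and CD63), while 2 fell in PD (CTSC and IDS). The shorter CACGTG was found in 1 further member, CD63, in 1 of its 8 windows, and in 7.2% of all windows. The glucocorticoid receptor half-site AGAACA (14.8% of all windows, both strands) was found in no window of the 19 members, and neither was the interferon-response pattern of GAAA, 2 bases and GAAA (3.57% of all windows, both strands). A match is a string of letters and not a shown binding site, the split was made with the differences known, and no test was run on it.

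**Figure D3:**
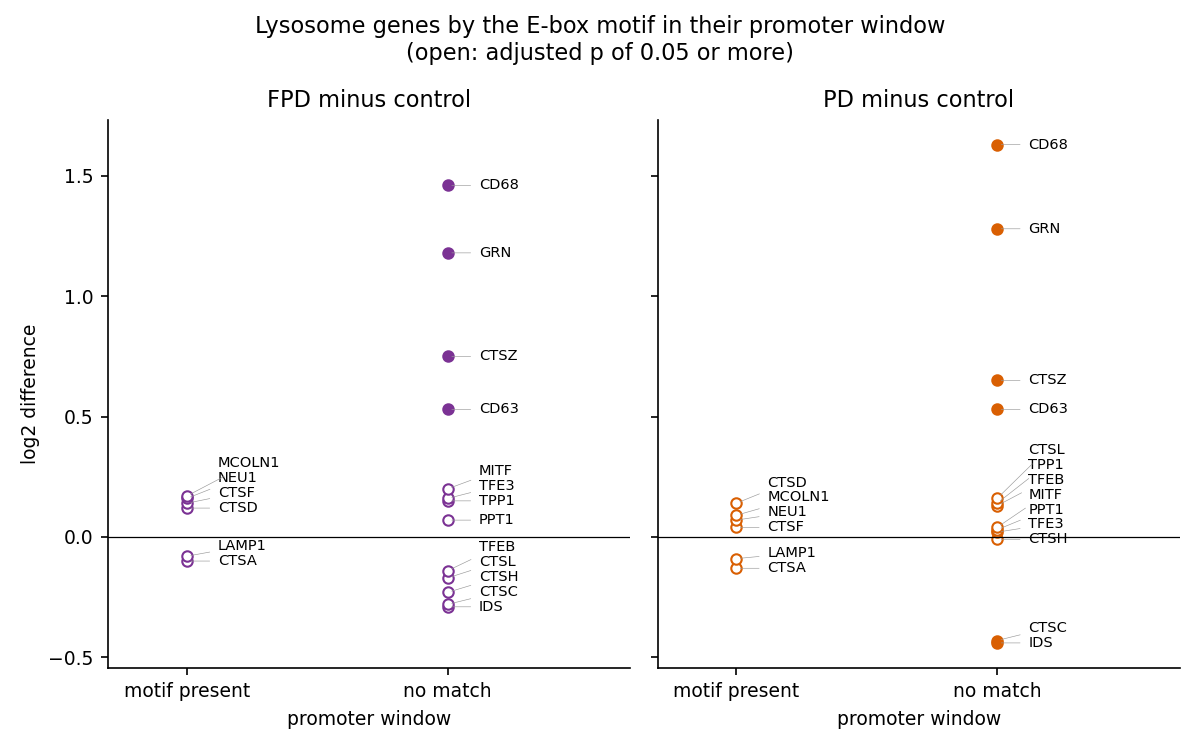
Log2 difference from control (y axis) of the 19 members with a promoter window, by whether TCACGTG or its reverse complement is present (x axis), for FPD (left) and PD (right). Filled points passed the test. The 6 genes with the motif lie between -0.13 and 0.17, and the filled points are all among the genes without a match. Few of all tested genes were called, so the lack of a filled point among these 6 was not read as a result.

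Among 13 measured proteases, 5 rose and none fell in FPD, against 7.26% of all genes rising and 5.89% falling. In PD 4 of the 13 rose and 1 fell, against 6.84% rising and 8.63% falling. CTSS, a cysteine protease that trims the invariant chain of MHC class II molecules, measured 8.73, 9.12 and 9.01 in FPD, 8.95, 8.89 and 8.89 in PD, 8.16, 8.50 and 8.42 in F, and 8.10, 8.21 and 7.88 in control. All FPD and PD arrays exceeded all others, and the F arrays overlapped those of control. CTSS was higher by 0.88 in FPD (1.85-fold, limma adjusted p = 0.000103) and by 0.84 in PD (1.80-fold, limma adjusted p = 0.000138), with 0.29 in F (95% interval 0.04 to 0.55, limma adjusted p = 0.752).

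CTSO, a papain-type cysteine protease, had 9.71, 9.95 and 9.52 in FPD, 9.98, 9.94 and 9.96 in PD, 9.17, 9.08 and 9.05 in F, and 9.07, 9.25 and 8.92 in control. The PD arrays lay within a narrow range, and 1 FPD array was lower than the other FPD and PD arrays without reaching those of F or control. The difference from control was 0.65 in FPD (1.57-fold, limma adjusted p = 0.000896) and 0.88 in PD (1.84-fold, limma adjusted p = 5.3e-05). CTSZ, a lysosomal carboxypeptidase, measured 7.64, 7.34 and 7.61 in FPD, 7.39, 7.52 and 7.38 in PD, 6.76, 6.83 and 6.83 in F, and 6.87, 6.72 and 6.75 in control. Here too the drug-combination groups did not overlap with F or control. CTSZ rose by 0.75 in FPD (1.68-fold, limma adjusted p = 6.63e-05) and by 0.65 in PD (1.57-fold, limma adjusted p = 0.000208).

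CTSB, a cysteine protease with both endopeptidase and dipeptidase action, averaged 6.36 ± 0.02 in FPD, 6.40 ± 0.04 in PD, 5.98 ± 0.02 in F and 5.94 ± 0.10 in control (n = 3 each). It rose by 0.42 in FPD (limma adjusted p = 0.00269) and by 0.46 in PD (limma adjusted p = 0.00111). CTSK, the collagen-degrading protease of osteoclasts, rose in FPD alone of these 2 comparisons, by 0.49 (limma adjusted p = 0.0231), and its log2 difference in PD was 0.30 (0.174). That FPD call was lost without FPD replicate 3 (limma adjusted p = 0.118), control replicate 1 (0.0669) or control replicate 2 (0.0903). The mean of CTSK over the 12 arrays, 4.95, lay below the median of all gene means, so its level was not shown to be above background. The difference between FPD and PD in CTSK was 0.19 (95% interval -0.09 to 0.48, limma adjusted p = 0.728).

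CTSC, which encodes the dipeptidyl peptidase that activates granule serine proteases, had values on the other side of control. It measured 9.23, 9.20 and 9.04 in FPD, 9.15, 8.82 and 9.07 in PD, 9.33, 9.49 and 9.45 in F, and 9.48, 9.51 and 9.33 in control. Every FPD and PD array lay below every F and control array. CTSC fell in PD by 0.43 (limma adjusted p = 0.00936, or 0.0528 without PD replicate 2), and its log2 difference in FPD was -0.28 (limma adjusted p = 0.0879). The aspartic protease CTSD had a log2 difference of 0.12 in FPD and 0.14 in PD (limma adjusted p = 0.543 and 0.426). The remaining 6 proteases (CTSA, CTSF, CTSH, CTSL, LGMN and TPP1) did not pass the test in FPD or PD against control.

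CTSL, a cysteine endopeptidase, differed from the other members in its pattern over the groups. It measured 5.60, 5.90 and 5.61 in FPD, 6.04, 6.20 and 5.84 in PD, 6.07, 6.48 and 6.35 in F, and 5.95, 6.19 and 5.46 in control. The FPD arrays lay below the F arrays, while the control arrays overlapped both. In FPD against F it fell by 0.60 (95% interval -0.94 to -0.25, limma adjusted p = 0.0216). The difference of F from control was 0.43 (0.08 to 0.78, limma adjusted p = 0.709). The call in FPD against F was lost without F replicate 2 (limma adjusted p = 0.104), F replicate 3 (0.0703), FPD replicate 1 (0.0818) or FPD replicate 3 (0.0825).

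Of 6 measured membrane proteins, 2 rose in FPD and in PD, CD68 and CD63, against 7.26% of all genes rising in FPD and 6.84% in PD. CD63, a tetraspanin of late endosomes, lysosomes and exosomes, measured 8.05, 8.36 and 8.45 in FPD, 8.30, 8.18 and 8.39 in PD, 7.69, 7.81 and 7.85 in F, and 7.85, 7.74 and 7.68 in control. The lowest FPD array stood between the other FPD arrays and those of F and control. The difference from control was 0.53 in both FPD and PD (1.45-fold, limma adjusted p = 0.00323 in FPD and 0.00272 in PD). The structural glycoproteins LAMP1 and LAMP2 had log2 differences of -0.08 and 0.22 in FPD and of -0.09 and 0.19 in PD, none past the threshold (smallest limma adjusted p = 0.224). LAMP3, a family member known from mature dendritic cells, measured 7.26, 7.19 and 7.21 in FPD, 6.99, 6.75 and 6.87 in PD, 7.08, 7.08 and 7.02 in F, and 6.86, 6.83 and 7.10 in control. Its FPD arrays lay above all 9 others, but the log2 difference of 0.29 from control did not pass the test (limma adjusted p = 0.0589). It did so without control replicate 3 (0.0219) and among genes above the median mean (0.0294). MCOLN1 had a log2 difference of 0.17 in FPD and 0.09 in PD (limma adjusted p = 0.353 and 0.666).

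Of 4 measured glycosidases and sulfatases, enzymes of glycan breakdown, 1 rose in FPD, and 1 rose and 1 fell in PD. Among all genes 7.26% rose and 5.89% fell in FPD, and 6.84% and 8.63% in PD. HEXA, the alpha subunit of the enzyme that degrades GM2 ganglioside, averaged 8.97 ± 0.11 in FPD, 9.02 ± 0.14 in PD, 8.51 ± 0.06 in F and 8.60 ± 0.16 in control (n = 3 each). It rose by 0.37 in FPD (limma adjusted p = 0.0292) and by 0.41 in PD (limma adjusted p = 0.0123). The call in PD did not hold without control replicate 2 (limma adjusted p = 0.0698) or PD replicate 3 (0.0622), and that in FPD without control replicate 2 (0.139), control replicate 3 (0.0523), FPD replicate 2 (0.102) or FPD replicate 3 (0.111).

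IDS, a sulfatase of dermatan and heparan sulfate breakdown, measured 8.19, 8.23 and 8.36 in FPD, 8.30, 7.97 and 8.05 in PD, 8.69, 8.46 and 8.61 in F, and 8.47, 8.59 and 8.57 in control. The FPD and PD arrays all lay below those of F and control. IDS fell by 0.44 in PD (limma adjusted p = 0.00713), and its log2 difference in FPD was -0.29 (0.0795). It has a pseudogene with which its probes may share signal. SGSH, which removes sulfate from heparan sulfate, had log2 differences of 0.28 in FPD and 0.25 in PD (limma adjusted p = 0.0741 and 0.104). SGSH passed in FPD among genes above the median mean (0.0381) and in PD after a second quantile normalization (0.0321). The log2 differences of the sialidase NEU1 were 0.16 in FPD and 0.07 in PD (limma adjusted p = 0.322 and 0.741).

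None of 3 genes of lipid handling was called in FPD or PD (limma), and 1 of them, PSAP, had an unadjusted p under 0.05 in each. Among all genes 7.26% rose and 5.89% fell in FPD, and 6.84% and 8.63% in PD. Unadjusted p-values under 0.05 were found for 24.5% of all genes in FPD and 26.5% in PD. PSAP, the precursor of the saposins that help sphingolipid hydrolases, measured 10.91, 10.84 and 10.99 in FPD, 10.91, 10.90 and 10.99 in PD, 10.68, 10.69 and 10.55 in F, and 10.70, 10.76 and 10.60 in control. All FPD and PD arrays exceeded those of F and control, by a log2 difference from control of 0.23 in FPD (limma adjusted p = 0.102) and 0.25 in PD (0.071). PSAP passed the test in FPD and PD after a second quantile normalization (limma adjusted p = 0.0447 and 0.0171) and with limma's trend and robust options (0.0357 and 0.0216), and in PD also among genes above the median mean (0.0367). The acid ceramidase gene ASAH1 had -0.03 in FPD and 0.04 in PD, and the thioesterase gene PPT1 0.07 in FPD and 0.03 in PD.

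The transcription factors that act on lysosome genes did not pass the test in any comparison. TFEB measured 5.17, 5.14 and 5.34 in FPD, 5.23, 5.47 and 5.77 in PD, 5.39, 5.39 and 5.02 in F, and 5.43, 5.24 and 5.4 in control. TFE3 measured 7.38, 7.36 and 7.52 in FPD, 7.39, 6.95 and 7.51 in PD, 7.42, 7.20 and 7.27 in F, and 7.24, 7.23 and 7.31 in control. MITF measured 3.85, 3.91 and 4.04 in FPD, 3.91, 3.69 and 3.72 in PD, 3.82, 3.99 and 3.69 in F, and 3.67, 3.78 and 3.75 in control. The PD arrays were the most spread in TFEB and TFE3, and only in TFE3 and MITF did the FPD arrays lie above all control arrays. Log2 differences from control in FPD were -0.14 for TFEB, 0.16 for TFE3 and 0.20 for MITF, and in PD 0.13, 0.02 and 0.04 (limma adjusted p from 0.244 to 0.938). The means of TFEB and MITF lay below the median of all gene means and were not shown to be above background. TFEB and its relatives are regulated largely by phosphorylation and location in the cell, which arrays do not measure.

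**Figure D4:**
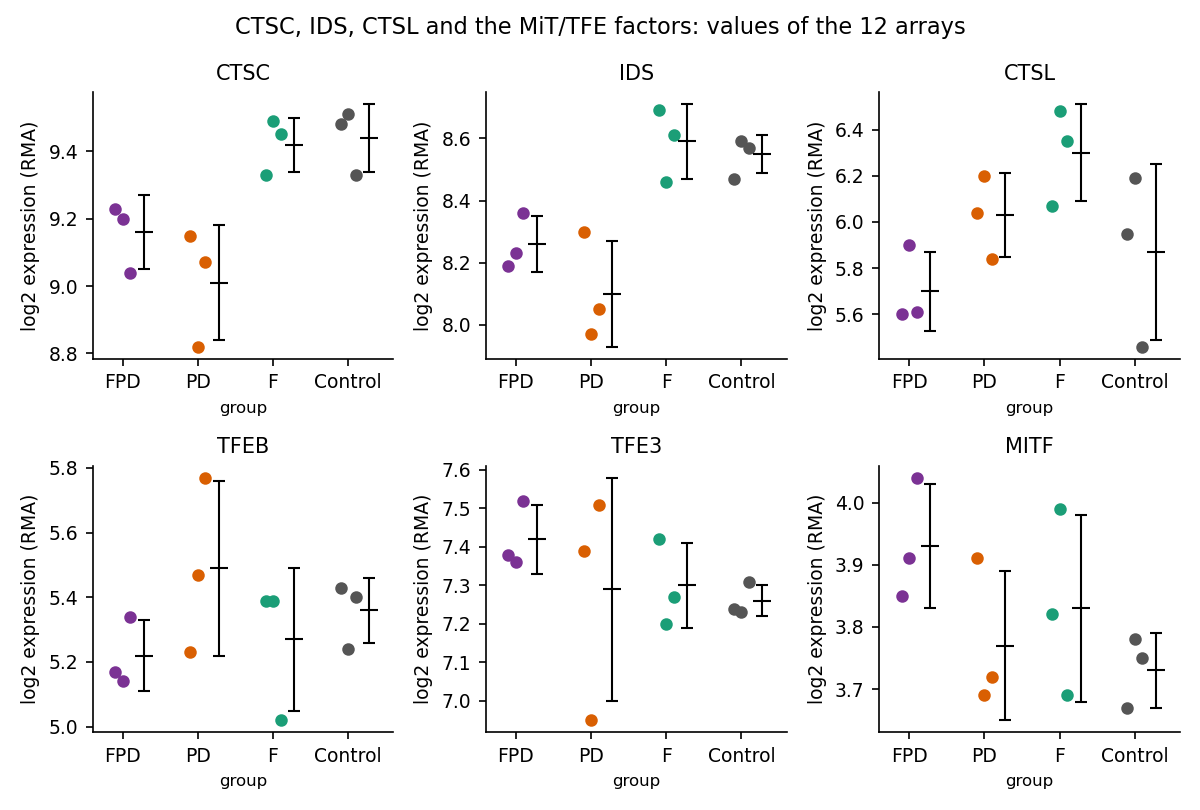
Log2 expression (y axis) of CTSC, IDS, CTSL, TFEB, TFE3 and MITF in the 12 arrays by group (x axis: FPD, PD, F, Control). Points are arrays, and the bars beside them are the mean and SD of 3 arrays. In CTSC and IDS the FPD and PD points lie below the F and Control points, and in CTSL the FPD points lie below the F points.

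Filanesib added to pomalidomide and dexamethasone was examined by comparing FPD with PD. None of the 30 lysosome genes was called (limma, smallest adjusted p = 0.251), where 0.0336% of all genes were called, and 1, LAMP3, had an unadjusted p under 0.05, against 8.62% of all genes. All FPD arrays lay above all PD arrays for LAMP3 and CTSF, against 8.1% of all genes, and below for none of the 30, against 6.35%. Its log2 difference was 0.35 (95% interval 0.14 to 0.55, limma adjusted p = 0.251). For CD68 the log2 difference was -0.17 (-0.36 to 0.02) and for GRN -0.10 (-0.31 to 0.11). Over the 30 genes the median half-width of the 95% interval was 0.21. Differences of 0.35 (LAMP3) and -0.33 (CTSL) did not pass the adjusted test, so differences between FPD and PD of up to at least that size could go uncalled. The departure from additivity, FPD minus PD less the difference of F and control, was called for none of the 30, against 0.0% of all genes (limma). CTSL had the lowest value of the 30, at -0.76 (-1.25 to -0.26, limma adjusted p = 0.888), and it alone of the 30 had an unadjusted p under 0.05, against 5.6% of all genes. If the F cells received dexamethasone, as their treatment label says, that contrast does not match dexamethasone between its terms.

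By the treatment labels FPD and F differed in pomalidomide alone. No group had pomalidomide or dexamethasone alone, so an effect of pomalidomide cannot be told from a lack of dexamethasone in F. DDIT4 rose by 4.65 in FPD against F. In that comparison 10 of the 30 lysosome genes rose and 2 fell, against 7.5% of all genes rising and 6.64% falling, and 15 had an unadjusted p under 0.05, against 24.7% of all genes. All FPD arrays lay above all F arrays for 13 genes, against 15.1% of all genes, and below for 3 (CTSC, CTSL and IDS), against 15.2%. CD68 rose by 1.43 (2.69-fold, limma adjusted p = 6.28e-08) and GRN by 1.15 (2.22-fold, limma adjusted p = 1.27e-06). CTSZ (0.72), CTSO (0.63), CTSS (0.59), CD63 (0.51), HEXA (0.46), SGSH (0.40), CTSB (0.38) and PSAP (0.28) also rose, while CTSL and IDS (-0.33) fell. SGSH lost its call without F replicate 2 (limma adjusted p = 0.0582). IDS lost it without F replicate 1 (0.135), F replicate 3 (0.113), any of the FPD replicates (0.0518 to 0.143) or control replicate 2 (0.0505). PSAP (limma adjusted p = 0.044) lost it in 9 of the 12 fits that left out an array (up to 0.162), among them each fit without an F or an FPD array.

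Genes of neighbouring pathways were counted from lists compiled for this purpose. Of 23 other measured lysosomal enzymes and membrane proteins, 6 rose and 2 fell in FPD, and 6 rose and 2 fell in PD, with a median log2 difference of 0.11 in FPD and 0.10 in PD. Over all genes 7.26% rose and 5.89% fell in FPD, and 6.84% and 8.63% in PD. LMBRD1, needed for export of cobalamin from lysosomes, rose by 0.60 in FPD and 0.64 in PD. HGSNAT, an acetyltransferase of heparan sulfate breakdown, rose by 0.58 in FPD, and its PD value was 0.44 (limma adjusted p = 0.0628). TMEM175, a lysosomal ion channel, rose by 0.44 in FPD and 0.48 in PD, and its FPD call ended without control replicate 3 (limma adjusted p = 0.0545) or FPD replicate 1 (0.0589). The sulfatase gene ARSB fell by 0.54 in FPD and 0.72 in PD, and the membrane protein gene LAPTM4B by 0.83 and 0.68. LAPTM4B averaged 4.17 in FPD, 4.32 in PD, 4.84 in F and 5.0 in control. These means lay below 5.39, the median of all gene means, so its level was not shown to be above background. The HGSNAT call did not hold without control replicate 1 (limma adjusted p = 0.0749) or FPD replicate 1 (0.0654), and that of LAPTM4B in PD without PD replicate 3 (0.0512). None of the 14 other V-ATPase subunits had a row, and these are not analysed here.

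Of 9 measured genes of sorting to the lysosome, 1 rose in FPD and 3 in PD and none fell, with medians of 0.18 in FPD and 0.27 in PD. The shares over all genes were 7.26% rising and 5.89% falling in FPD, and 6.84% and 8.63% in PD. BORCS6, part of a complex that moves lysosomes along microtubules, rose by 0.54 in FPD and 0.58 in PD, and the tethering factors VPS11 and VPS33A rose by 0.49 and 0.32 in PD (limma adjusted p = 0.00238 and 0.0168), with 0.15 and 0.26 in FPD (0.386 and 0.0559). VPS33A was no longer called in PD without control replicate 1 (limma adjusted p = 0.064) or 3 (0.0585) or without PD replicate 1 (0.0503) or 2 (0.0502). The BORCS6 call in FPD did not hold without control replicate 1 (limma adjusted p = 0.0624) or FPD replicate 3 (0.0552). Of 26 measured autophagy genes, 3 rose and none fell in FPD, and 2 rose and 1 fell in PD, beside the shares over all genes given above. The autophagy receptor gene OPTN measured 8.24, 8.27 and 8.22 in FPD, 8.29, 8.25 and 8.22 in PD, 7.56, 7.54 and 7.77 in F, and 7.65, 7.64 and 7.60 in control. It rose by 0.62 in FPD (1.53-fold, limma adjusted p = 0.000149) and 0.63 in PD (1.54-fold, 0.000109). TAX1BP1, another autophagy receptor, rose by 0.33 in FPD (limma adjusted p = 0.0323), but not without any of the control arrays (0.0525 to 0.0969) or without FPD replicate 2 (0.0719) or 3 (0.149). ATG2A, a lipid transfer protein of the forming autophagosome, rose by 0.37 in FPD (limma adjusted p = 0.0461), a call lost in each fit without a control or an FPD array (adjusted p up to 0.154), without PD replicate 1 (0.0553) or 3 (0.0513) and without F replicate 3 (0.0567). GABARAP, which coats autophagosome membranes, rose by 0.33 in PD but was not called when control replicate 3 was left out (limma adjusted p = 0.13), nor without PD replicate 1 (0.0852) or PD replicate 2 (0.0588). SQSTM1, the receptor that carries ubiquitinated cargo to autophagosomes, fell by 0.36 in PD (limma adjusted p = 0.0158), lost without control replicate 2 (0.0601), PD replicate 1 (0.0551) or PD replicate 2 (0.071).

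Among 19 measured genes of nutrient signalling at the lysosome, 3 rose and 1 fell in FPD, against 7.26% of all genes rising and 5.89% falling. In PD 3 of the 19 rose and 2 fell, against 6.84% rising and 8.63% falling. RRAGC, a GTPase that recruits mTORC1 to the lysosome, rose by 0.44 in FPD and 0.40 in PD, and lost the PD call without PD replicate 1 (limma adjusted p = 0.0509). TSC2, a brake on mTORC1, rose by 0.42 in FPD but not when control replicate 2 (0.0592) or FPD replicate 1 (0.0537) was left out, and had 0.31 in PD (limma adjusted p = 0.0504). DEPDC5, part of another brake on mTORC1, fell by 0.58 in PD (limma adjusted p = 0.00077), with -0.27 in FPD (0.0988). The calls of RRAGA (0.37 in PD) and RRAGD (-0.29 in FPD and -0.33 in PD) were lost without several single arrays (limma adjusted p up to 0.113 for RRAGA and 0.188 for RRAGD). RRAGA was left out by the filter on low means, so its level was not shown to be above background. Of 9 measured glucocorticoid-induced genes, 6 rose and 1, SGK1, fell in FPD, and 7 rose in PD. The SGK1 call did not hold without control replicate 2 (limma adjusted p = 0.0976), FPD replicate 2 (0.0658) or FPD replicate 3 (0.0645). DDIT4, an inhibitor of mTORC1, led with 4.62 in FPD and 4.46 in PD. The F arrays had no called gene in any of these lists, where 0.00672% of all genes were called in F against control. Lists of this size were too short to show a difference from that share.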

How the data were processed

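Gene expression in 12 MM.1S samples was read from the deposited table of log2 expression values, which the authors made with RMA in Affymetrix Expression Console; the submitters' processing notes name both. RMA corrects background, gives all arrays 1 distribution and summarises probes per transcript cluster, and it compresses low signals. Versions, genome build and scan batches are not given in the sources used here. Values ran from 1.61 to 13.75. The number of arrays, 3 a group, limits the precision.

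Of 53617 rows, 16098 had 1 gene symbol in the platform annotation, 0 had several and 37519 had none. For 779 genes with several rows, the row with the highest mean was used; each measured lysosome gene had 1 row. Group means were fitted with limma 3.58.1 in R 4.3.3 (lmFit, eBayes) to 14884 genes and 12 arrays, with two-sided p-values adjusted by Benjamini-Hochberg over all genes. The fit was tested on simulated data. No list was tested as a set.

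Members and lists were chosen with earlier results of these data known. Values for all 12 arrays are given for members called with a log2 difference of at least 0.5 in size, for TFEB, TFE3 and MITF, and for others added after their values were seen. Of other lists, the 2 highest and 2 lowest called genes were eligible for naming. Replicate numbers were not taken as pairs: deviations of same-numbered arrays from their group means correlated at -0.26 to 0.16. Alternatives were other row choices, a filter on low means, renormalization, other limma settings, a replicate block and leaving out each array.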

Additional observations from a re-analysis of the deposited data

How the results depend on the processing

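The counts of called genes and medians over the 30 lysosome genes, and the differences from control of the named genes with a call, were recomputed under 20 alternative settings, 12 of which left out 1 array. Counts by role, by separation of arrays and over the other lists were not. CD68, GRN, CTSO, CTSS, CTSZ, CD63 and CTSB kept their calls in FPD and PD against control and in FPD against F in all of them. The number of lysosome genes rising in PD ran from 7 to 8 over the fits without 1 array, in FPD from 7 to 9, and in FPD against F from 8 to 10. Genes falling in PD numbered 1 to 2 and in FPD against F 0 to 2 over those fits. Genes falling in FPD against F numbered 0 with all rows of the table tested and 1 with the replicate block, and genes falling in FPD against control numbered 2 among genes above the median mean (CTSC and IDS). The replicate block ended 2 calls of lysosome genes, those of IDS (limma adjusted p = 0.0511) and PSAP (0.0633) in FPD against F, and among the other named genes those of ATG2A and RRAGD in FPD and PECAM1 in PD. With all rows tested, HEXA (0.0812) and CTSK (0.0883) lost their FPD calls, and CTSL, IDS and PSAP theirs in FPD against F. That setting also ended FPD calls of CRBN, BORCS6, HGSNAT, TAX1BP1, ATG2A, RRAGD and SGK1. In PD it ended those of CRBN, GABARAP, RRAGA and PECAM1. Fitting the compared arrays alone ended calls of PSAP in FPD against F, RRAGD in FPD, and GABARAP, RRAGA, RRAGD, VPS33A and PECAM1 in PD. The median log2 difference in PD ran from 0.085 to 0.155 and that of FPD against PD from -0.032 to 0.043 over the fits without 1 array, and the median of FPD against PD was -0.027 after a second quantile normalization.

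Differences in PD against control that never passed the test and changed sign over fits without 1 array were those of CTSH (-0.182 to 0.106), ASAH1 (-0.031 to 0.083), CTSL (-0.045 to 0.323), LAMP3 (-0.115 to 0.028), MITF (-0.031 to 0.082), PPT1 (-0.047 to 0.094), TFE3 (-0.089 to 0.191) and TFEB (-0.010 to 0.263), and in FPD those of ASAH1 (-0.105 to 0.017) and PECAM1 (-0.026 to 0.183). With arrays centred on their medians PPT1 was -0.005 and TFE3 -0.008 in PD. The cause of these changes was not tested. No called difference that was recomputed changed its direction. Centring also moved the calls over all genes, to 1003 higher and 881 lower in FPD (1080 and 876 as reported), 865 and 1458 in PD (1018 and 1284), and 929 and 1131 in FPD against F (1117 and 988).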
